A study of Mus musculus with 24 samples.

Results

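Mitochondrial import and membrane dynamics genes were followed in nuclear RNA of postnatal cardiomyocytes (CMs). The set held the protein-coding genes with Timm, Tomm or Chchd symbols followed by a number, pseudogenes left out, and Mfn1, Mfn2, Opa1, Dnm1l, Immt, Mff and Fis1. They were chosen by symbol and not by a rule on their counts, though with earlier results of these data known. They came to 40 of the 56923 gene identifiers in the count tables and of 21631 protein-coding genes. Of these 40 members, 33 summed to 10 or more reads and were seen in 3 or more of the 21 libraries that entered the tests. The other 7, Tomm5, Tomm6, Timm10b, Timm29, Timm8a2, Timm8b and Chchd2, had too few counted reads to be tested.

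CM nuclei were sorted from mouse hearts by staining of PCM1, a protein that marks the nuclear surface of CMs, at postnatal day 1 (P1), P7 and P14. Control mice were XMLC2(-)Casp2(fl/fl), labelled WT. The other genotype was XMLC2(+)Casp2(fl/fl), labelled Casp2 KO and called Casp2-depleted here, in which Cre is driven by the cardiac XMLC2 promoter and removes Casp2, the gene of the protease Caspase-2. All groups carry the floxed Casp2 alleles, so the Cre transgene is not separated from the loss of Casp2 by a Cre control without floxed alleles. Each of the 6 groups had 4 libraries, 24 in all, and a library came from a pool of 15 hearts at P1, 6 at P7 and 2 at P14.

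Most mitochondrial proteins are encoded in the nucleus, made in the cytosol and imported. The TOM complex of the outer membrane receives them, the TIM23 complex passes those with a cleavable presequence into the matrix, and the small TIM chaperones carry hydrophobic proteins to the TIM22 complex for insertion into the inner membrane. The MICOS complex holds the cristae of the inner membrane in shape. Mitofusins and Opa1 fuse the outer and inner membranes, and the dynamin Dnm1l divides mitochondria. In the heart, mitochondria multiply and line up between the myofibrils in the weeks after birth.

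The libraries were sparse and uneven, and this touches every value given for the members. Reads on genes ran from 891817 to 2924097 in the 21 libraries, with 7628 to 17770 genes detected, and reads on no gene made up 34.3 to 76.1% of the uniquely placed reads. The study left out 1 P1 control library (replicate 1), which stood far off in a principal component plot and had high levels of genes of mitochondria, ribosomes and translation, read there as a sign of cytoplasmic RNA. It also left out 2 P14 libraries (control replicate 3, Casp2-depleted replicate 1) for few detected genes. None of the 3 entered a test here. The targeted gene could not check the genotype labels, because Casp2 had 5, 3, 1 and 0 reads in the P7 controls, 5, 3, 0 and 0 in the P7 Casp2-depleted libraries and 0 in all 16 others. Of 10 CM markers, 9 or 10 were detected in each of the 21 libraries, with a summed level of 23157 to 75849 CPM at P1, 45354 to 81966 at P7 and 12127 to 44306 at P14. CPM is the usual scale of reads divided by all reads on genes of the library. Summed markers ran from 75.4 to 379 CPM for fibroblasts (4 to 8 of 8 detected) and 53.2 to 1115 CPM for endothelial cells (3 to 7 of 8). For macrophages they ran from 48.3 to 344 CPM (1 to 6 of 8). The highest value of each of these 3 lists was in a P14 library. Mural markers ran from 67.2 CPM in P14 control replicate 1 to 537 CPM in P1 Casp2-depleted replicate 4 (3 to 7 of 7). The lowest endothelial value was in P14 control replicate 1 too. Erythroid markers ran from 0 to 110 CPM (0 to 5 of 7), highest in P14 Casp2-depleted replicate 4. Their part in the results was not tested. In bulk nuclei, fewer nuclei of a type and less RNA per nucleus cannot be told apart.

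The members took 42923 of 33881992 reads on genes in the 21 libraries, 0.127%. Chchd3, a MICOS subunit, held 28.3% of these, Mfn2 11.4% and Immt, the core MICOS subunit, 10.2%. Only Chchd3 and Immt had reads in all 21 libraries, 30 of the 40 members had fewer than 1000 reads in total, and Tomm5, Tomm6, Timm10b, Timm8a2 and Chchd2 had none. Per kilobase of gene the order was another one. Over the 21 libraries the level was 6.80 CPM per kilobase of gene for Chchd1, 5.27 for Tomm40, 4.23 for Mfn2, 4.01 for Timm17b and 2.81 for Immt, where Chchd3 had 1.31 and came at rank 11.

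Detection followed gene length. The counts cover introns as well as exons. The 14 members under 10000 bp had reads in a mean of 5.07 of the 21 libraries, the 16 members of 10000 bp up to 25000 bp in 12.1 and the 10 longer ones in 17.2. Over the 40 members the Spearman correlation of gene length with the number of libraries with reads was 0.70, and over the 21631 protein-coding genes it was 0.74, so the members stood as other genes do. These are correlations across genes of the same libraries, given as a description. Chchd3 on chromosome 6 (GRCm39, 32762883 to 33037211, minus strand) spans 274329 bp, and Chchd6 on the same chromosome spans 212515 bp.

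**Figure D1:**
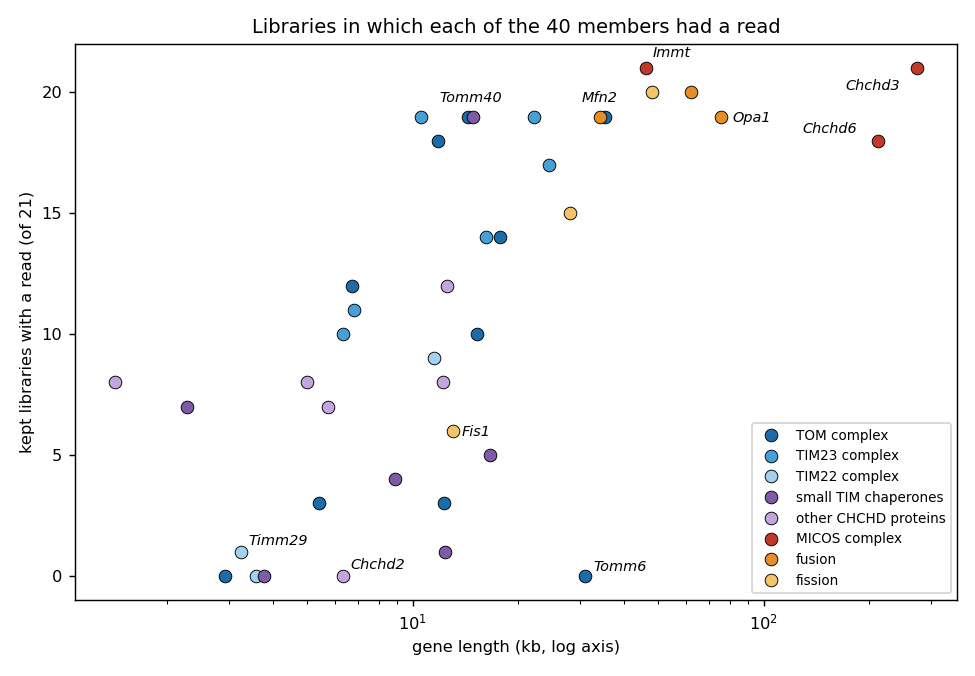
Number of the 21 kept libraries with at least 1 read (y axis) against gene length in kb on a log axis (x axis) for the 40 members, coloured by role. The 14 members under 10 kb were found in 0 to 12 libraries, and Chchd3 and Immt, both longer than 25 kb, in all 21.

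Some members share their place with other genes, which limits what a count can say of them. In 9 of the 40, at least 75% of the gene is overlapped by other annotated genes, and 3 of these 9 had no read, against 2 of the other 31. Chchd2 is overlapped over 100% of its length by Phkg1 on the same strand, and Timm10b is 86.2% covered by Gm45799 on its own strand. Both had 0 reads. On the opposite strand, Timm21 is covered over 100% of its length by Fbxo15, Tomm40l over 87.3% by Nr1i3 and Apoa2, Dnm1l over 79.8% by Yars2 and Gm49521, Tomm22 over 79.3% by Josd1 and Gm49520 and Chchd10 over 79.1% by Mmp11 and Gm867, and Timm9 and Tomm20l overlap at their ends on opposite strands of chromosome 12, by 9.49% of Timm9. The strand setting of the counting is not given in the sources used here, so it is not known whether reads of these genes were told apart from those of antisense partners. Timm21 had 203 reads although Fbxo15 covers all of it, while Chchd2, covered on its own strand, had 0. Other genes covered on the opposite strand had few or none. Tomm6, covered over 97.3%, had 0 reads, and Timm8b, covered over 89.1%, had 13. Whether the counting used strand was not tested.

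Promoter sequence was looked at because it is shared by members whatever their counts. RefSeq windows of 300 bp around the start (GRCm38.p6) were matched for 35 of the 40 members. The ETS motif CCGGAAG, bound by GABP, a factor known for its role at nuclear genes of mitochondrial proteins, was in a window of 15 of the 35 (42.9%) and of 14.2% of 15319 protein-coding genes, on either strand. The palindromic motif of NRF1, a factor known for the same role, was in 5 of the 35 (14.3%) against 7.87%. The E-box CACGTG was in 7 (20%) against 9.62%, the GC box GGGCGG in 17 (48.6%) against 54.5% and CCAAT in 16 (45.7%) against 42.4%. Immt and Timm8b held both the ETS and the NRF1 motif. A match is a description of letters and not of binding.

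The sequences given here are the bases just upstream of the annotated gene for the core MICOS subunit, the inner membrane fusion GTPase and the member with the most reads. They were placed on GRCm39 by exact match and are written 5′ to 3′ in the direction of the gene, with the ETS or NRF1 match in capitals. The Immt stretch is chr6:71808054-71808259, plus strand, with an ETS match 75 to 69 bases before the gene. The Opa1 stretch is chr16:29397902-29398107, plus strand, with an NRF1 match 15 to 6 bases before the gene, and the Chchd3 stretch is chr6:33037212-33037445, minus strand, with an ETS match that starts 114 bases before it.
Immt: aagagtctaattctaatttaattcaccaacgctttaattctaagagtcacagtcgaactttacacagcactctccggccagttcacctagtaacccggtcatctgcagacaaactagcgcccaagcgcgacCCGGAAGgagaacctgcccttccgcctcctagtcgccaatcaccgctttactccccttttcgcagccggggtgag
Opa1: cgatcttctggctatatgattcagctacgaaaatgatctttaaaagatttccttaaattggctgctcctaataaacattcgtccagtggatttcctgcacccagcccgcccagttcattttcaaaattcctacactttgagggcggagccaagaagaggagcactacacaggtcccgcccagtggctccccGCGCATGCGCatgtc
Chchd3: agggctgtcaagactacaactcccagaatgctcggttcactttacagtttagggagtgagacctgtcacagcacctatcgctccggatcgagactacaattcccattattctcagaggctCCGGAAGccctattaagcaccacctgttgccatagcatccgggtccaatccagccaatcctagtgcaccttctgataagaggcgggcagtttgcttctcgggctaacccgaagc

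Taken as a share of all reads on genes, the members were highest at P7 in the controls and lowest at P14, with ranges that overlapped. The share was 0.111% ± 0.0197 (SD, n = 3) in P1 controls, 0.134% ± 0.0309 (n = 4) in P7 controls and 0.0946% ± 0.0227 (n = 3) in P14 controls. In Casp2-depleted CMs it was 0.132% ± 0.0454 (n = 4) at P1, 0.124% ± 0.0334 (n = 4) at P7 and 0.104% ± 0.0183 (n = 3) at P14. The differences between days and genotypes were of the size of the spread within groups, and no test was run on the sum.

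No member passed edgeR's test in any of the 12 comparisons. Each comparison was fitted with edgeR's quasi-likelihood test over 20368 genes, and calls needed a p below 0.05 after Benjamini-Hochberg adjustment and a log2 fold change of more than 1 in size. Among all genes tested, the called share was 0.00982% for P7 over P1 in controls, 1.88% for P14 over P7 in controls, 0.319% for P14 over P1 in controls, 0.0196% for P7 over P1 in Casp2-depleted CMs, 2.83% for P14 over P7 and 1.94% for P14 over P1 there. Between genotypes it was 0% at P1, 0% at P7, 0.167% at P14 and 0.0147% averaged over days, and for the interactions of genotype with day it was 0% for P7 over P1 and 0.0245% for P14 over P7. Shares of this size over 33 genes come to less than 1 gene in each comparison, so the absence of calls was near the background. The spread between libraries was wide, with a common biological coefficient of variation of 1.5. In simulated counts for P7 over P1 in controls, with that spread given to every gene, edgeR called none of the genes that had been changed. The spread of real genes differs from gene to gene, and the other comparisons were not simulated. Thus 0 calls do not show that the members were alike between groups. Other tools called members in 9 of the 12 comparisons, given beside each.

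Among the outer membrane (TOM) members, Tomm40, the channel of the complex and its best-measured subunit with 2562 reads, had its lowest values at P14. Here and below, values are CPM scaled by TMM, edgeR's correction for library composition, in order of replicate number. The TMM factors were 0.575 to 0.983 in the P7 and 1.11 to 1.57 in the P14 libraries. On this scale P14 values are thus lowered against P7, and some ranges that lie apart below overlap in unscaled CPM. Tomm40 was at 34.3, 57.8 and 131 in P1 controls, 106, 161, 88.4 and 91.5 in P7 controls and 0, 0 and 162 in P14 controls. In Casp2-depleted CMs it was at 115, 23.9, 50.8 and 160.4 at P1, 122, 70.6, 79.1 and 42.9 at P7 and 47.2, 8.83 and 62.9 at P14. A single P14 control library, replicate 4, carried all 213 Tomm40 reads of its group and was above all 4 P7 controls. Without it Tomm40 was called for P14 over P7 in controls (edgeR adjusted p = 1.4e-04). The group then has no Tomm40 read, so that call rests on the library left out. With all 3 P14 controls the change was -1.05 on the log2 scale (SE 0.95, edgeR adjusted p = 0.60).

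The TOM receptors were measured less well. Tomm70a, a receptor for hydrophobic precursors, had 944 reads in 19 libraries, and Tomm20, the receptor for presequences, had 241 in 10. Tomm34, a cytosolic protein that helps keep precursors unfolded, had 411 reads in 14 libraries and none in the 6 P14 libraries kept, where P7 libraries were between 2.88 and 39.2 CPM and none was at 0. Tomm20 was likewise without a read in all 6. Tomm20l, a paralog of Tomm20 that overlaps Timm9, had 998 reads in 18 libraries and 2.49 CPM per kilobase of gene, against 0.466 for Tomm20. Tomm22, the central receptor, had 14 reads, and the small subunits Tomm5, Tomm6 and Tomm7 had 0, 0 and 54.

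Of the TIM23 complex, all 6 members were tested. Timm17b and Timm17a are paralogous subunits of the channel. Timm17b was at 61.4, 14.1 and 35.0 CPM in P1 controls, 36.1, 19.4, 45.2 and 27.0 in P7 controls and 84.1, 0 and 0 in P14 controls. In Casp2-depleted CMs it was at 25.1, 52.6, 42.7 and 43.0 at P1, 43.9, 58.7, 28.9 and 110.4 at P7 and 58.5, 63.0 and 84.5 at P14. At P14 all 3 Casp2-depleted libraries had reads, while replicates 2 and 4 of the controls were at 0 and replicate 1 was within the range of the Casp2-depleted libraries. Without P14 control replicate 1, Timm17b was called for P14 over P7 in controls (edgeR adjusted p = 0.038). The group then has no Timm17b read, so that call rests on the library left out. Timm17a had 27.0 ± 7.58 CPM (SD, n = 4) in P7 controls and no read in P14 controls. In Casp2-depleted CMs it had 64.2 ± 55.0 CPM (SD, n = 4) at P7, and at P14 it had 10 and 24 reads in replicates 2 and 3 and none in replicate 4.

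Timm44, which ties the mitochondrial Hsp70 motor to the channel, had 200 reads in the 4 P7 controls, none in the 3 P14 controls and 127 in the P14 Casp2-depleted libraries, all of these in replicates 2 and 4. Timm23, the channel subunit itself, had 825 reads in 19 libraries, with 1 library at 0 in each P14 group. Timm50 and Timm21, the receptor and a coupling subunit of the complex, had 194 and 203 reads. All 6 TIM23 members had a fitted P14 over P7 change below 0 in controls, against 62.2% of all genes tested, and 3 of 6 did in Casp2-depleted CMs, against 60.1%.

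The TIM22 and small TIM members were close to the limit of detection. Timm22, the insertase, had 205 reads in 9 libraries and none at P14, Timm29 had 4 reads and Timm10b had 0. Of the small chaperones, Timm9 had 1159 reads, Timm10 166, Timm8a1 22, Timm8b 13 and Timm8a2 0, and Timm13 was seen in 7 libraries. Timm9 had its lowest values in the P1 controls. It was at 0.602, 1.41 and 1.59 CPM there, 51.8, 40.3, 31.4 and 12 in P7 controls and 16.3, 40.5 and 103 in P14 controls, without overlap between P1 and the later days. Among Casp2-depleted CMs, Timm9 was at 91.5, 0, 18.3 and 57.0 at P1, 85.0, 11.1, 61.2 and 7.73 at P7 and 14.8, 51.7 and 0 at P14, with zeros at both ends of the series. Timm9 and its obligate partner Timm10 form the main chaperone hexamer, and Timm10 had reads in only 5 libraries.

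The Chchd proteins outside MICOS share a paired-cysteine fold. Chchd4 (Mia40), the oxidoreductase that traps such proteins in the intermembrane space, had 401 reads, with 182 of these in P1 control replicate 2 and 78 in P1 Casp2-depleted replicate 2. Chchd1, a subunit of the mitochondrial ribosome, had 327 reads in 8 libraries, Chchd10 189 in 7, Chchd7 171 in 8 and Chchd5 124 in 8. Chchd2 had none. No group of any of these 5 measured members was free of zeros, so they are given by their totals.

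All 3 MICOS members were tested. Chchd3 (MIC19) was at 129, 351 and 539 CPM in P1 controls, 657, 603, 417 and 312 in P7 controls and 391, 135 and 203 in P14 controls. It was at 465, 215, 225 and 685 in P1, 712, 441, 378 and 274 in P7 and 88.8, 181 and 161 in P14 Casp2-depleted CMs. All 3 P14 Casp2-depleted libraries lay below all 4 at P1 and all 4 at P7. In unscaled CPM this held against P7 only, as P14 reached 265 CPM and the lowest P1 library was at 250. The change was -1.65 on the log2 scale for P14 over P7 (SE 0.55, n = 3 and 4, edgeR adjusted p = 0.080) and -1.47 for P14 over P1 (SE 0.55, edgeR adjusted p = 0.17), against medians of -0.61 and -0.41 over all genes tested. In controls the P14 over P7 groups overlapped.

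Immt (MIC60), which anchors the MICOS complex and shapes crista junctions, was at 51.8, 161 and 93.8 CPM in P1 controls, 99.9, 228, 242 and 334 in P7 controls and 79.2, 25.5 and 40.2 in P14 controls. In Casp2-depleted CMs it was at 174, 55.4, 57.6 and 218 at P1, 209.7, 158, 187 and 172.9 at P7 and 88.8, 104 and 22.3 at P14. In both genotypes every P14 library lay below every P7 library of the same genotype on this scale. In unscaled CPM they overlapped. The lowest P7 control was at 83.6 and the highest P14 control at 87.6, and in Casp2-depleted CMs these were at 110.6 and 152. For controls the change was -2.22 on the log2 scale (SE 0.76, n = 3 and 4, edgeR adjusted p = 0.11), and DESeq2 gave -1.94 with an adjusted p of 0.033. Chchd6 (MIC25), the paralog of Chchd3, was lower, with 28.1 ± 9.05 CPM (SD, n = 4) in P7 controls, and per kilobase of gene Immt was at 4.65 CPM, Chchd3 at 1.86 and Chchd6 at 0.131 there.

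**Figure D2:**
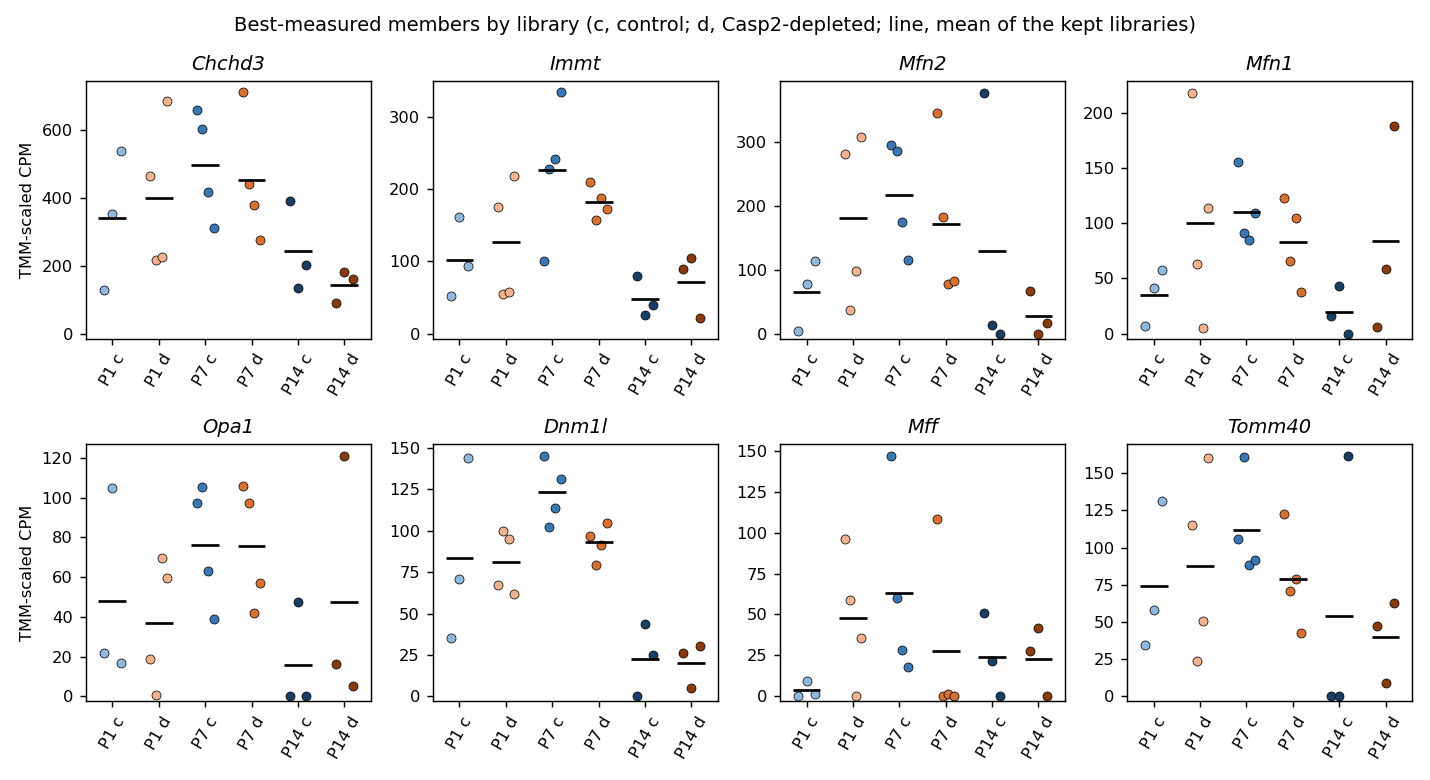
TMM-scaled CPM (y axis) of 8 members in each of the 21 kept libraries by group (x axis: P1, P7 and P14, c for control and d for Casp2-depleted), with points for libraries and a line for the group mean. Immt and Dnm1l were lower in every P14 library than in every P7 library of the same genotype, while single libraries carried the P14 control mean of Mfn2 and Tomm40. In unscaled CPM the P7 and P14 ranges of Immt overlapped and those of Dnm1l did not.

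Of the fusion GTPases, Mfn1 and Mfn2 join outer membranes and Opa1 inner membranes. Mfn1 was at 6.62, 41.6 and 57.2 CPM in P1 controls, 155, 90.7, 84.4 and 109 in P7 controls and 15.6, 42.8 and 0 in P14 controls. It was at 218, 63.1, 4.74 and 113 in P1, 122, 65.8, 105 and 38.0 in P7 and 5.64, 58.6 and 188 in P14 Casp2-depleted CMs. In controls P7 stood above both other days without overlap, with a log2 change of -2.50 for P14 over P7 (SE 1.03, n = 3 and 4, edgeR adjusted p = 0.25). In unscaled CPM the lowest P7 control, at 52.1, was under the highest P1 (55.4) and P14 (55.5) controls. In Casp2-depleted CMs the days overlapped throughout.

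Mfn2, which also tethers mitochondria to the sarcoplasmic reticulum, was at 4.21, 78.2 and 114 CPM in P1 controls, 296, 286, 175 and 115 in P7 controls and 377, 12.8 and 0 in P14 controls. It was at 281, 37.2, 97.5 and 307 in P1, 345, 183, 77.7 and 82.3 in P7 and 67.0, 0 and 16.4 in P14 Casp2-depleted CMs. The P14 control mean rested on replicate 1, whose value was above all 4 P7 controls, while the other two P14 controls were far below them. Without that library Mfn2 was called for P14 over P7 in controls (log2 change -5.08, edgeR adjusted p = 7.8e-04), and with it the change was -0.75 (SE 1.58). Replicates 2 and 4, which were left, held 17 and 0 Mfn2 reads, so that call rests on the library left out. In Casp2-depleted CMs all 3 P14 libraries were below all 4 at P7. In unscaled CPM they overlapped, with 81.4 at P14 against a lowest P7 value of 67.1.

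Opa1 was at 21.7, 105 and 16.7 CPM in P1 controls, 97.2, 105, 62.8 and 39.0 in P7 controls and 0, 47.3 and 0 in P14 controls, where only replicate 2 had a read. It was at 18.6, 0.702, 69.7 and 59.5 in P1, 106, 97.5, 42.0 and 56.9 in P7 and 16.2, 121 and 5.24 in P14 Casp2-depleted CMs. The P7 means were 76.1 ± 30.8 in controls and 75.6 ± 31.0 (SD, n = 4 each) in Casp2-depleted CMs, with a 95% interval of -2.33 to 2.31 for the log2 difference. Without P14 control replicate 2, Opa1 was called for P14 over P7 and P14 over P1 in controls and between genotypes at P14, with edgeR adjusted p of 0.011, 0.034 and 0.025. The group then has no read, and with all 3 libraries none of these was called.

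For fission, Dnm1l (Drp1) is the GTPase that constricts mitochondria, and Mff and Fis1 are outer membrane proteins known as its adaptors. Dnm1l was at 35.5, 71.1 and 144 CPM in P1 controls, 145, 102, 114 and 131 in P7 controls and 0, 43.5 and 25.1 in P14 controls. It was at 67.4, 99.6, 94.8 and 62.0 in P1, 97.2, 79.3, 91.5 and 105 in P7 and 26.1, 5.04 and 30.1 in P14 Casp2-depleted CMs. In both genotypes every P14 library was below every P7 library. The log2 change was -2.43 in controls (SE 1.03, edgeR adjusted p = 0.26) and -2.19 in Casp2-depleted CMs (SE 1.02, edgeR adjusted p = 0.28), and -1.98 for P14 over P1 in the latter (SE 1.01, edgeR adjusted p = 0.29).

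Mff was low in P1 controls, at 0, 9.16 and 1.59 CPM, and at 147, 59.8, 28.1 and 18 in P7 controls and 50.9, 21.8 and 0 in P14 controls. In Casp2-depleted CMs it was at 96.0, 58.9, 0 and 35.5 at P1, 108.4, 0, 1.38 and 0 at P7 and 27.5, 41.6 and 0 at P14. P7 controls were the only group in which no library was without a Mff read. Fis1 had 83 reads, at 0, 0, 4.58 and 6.75 CPM in P7 controls and 27.1, 0, 2.75 and 2.11 in P7 Casp2-depleted CMs. It had no read at P1 in either genotype, which allows up to 0.691 CPM in the pooled controls, and its only P14 value was 1.5 CPM in control replicate 2.

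From P7 to P14, in controls, 29 of 33 members had a fitted change below 0 and 3 above, where 62.2% of all genes tested were below and 35.2% above, and the median was -2.27 on the log2 scale against -0.75 over all genes. With members that had no read in a group set at their bound, the medians were -2.15 and -0.65. In Casp2-depleted CMs 26 of 33 were below 0 and 7 above, where 60.1% and 37.3% of all genes were, with medians of -2.19 against -0.61, and of -1.80 against -0.54 at the bounds. These are descriptions of members chosen by symbol, and the 2 comparisons are over different libraries. Scaling by DESeq2 size factors moved the medians of all genes to -0.52 and -0.26 and those of the members to -2.09 and -1.89. Single libraries moved the medians too: without P14 control replicate 2 that of the controls was -4.12 (all genes -1.75), and without P7 Casp2-depleted replicate 1 that of Casp2-depleted CMs was -0.64 (all genes -0.20). At an unadjusted p below 0.05, 11 members were lower in controls and none higher, where 12.9% and 1.93% of all genes were. In Casp2-depleted CMs 7 were lower and none higher, where 13.8% and 2.24% of all genes were.

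Most of these changes rest on members without a read at P14. In controls 8 of the 11 did, with Timm44 at least 44.0-fold lower than at P7, Timm17a at least 37.8-fold, Tomm34 at least 27.5-fold, Timm21 at least 24.8-fold, Tomm40l at least 20.9-fold, Timm22 at least 15.4-fold, Tomm20 at least 13.9-fold and Timm50 at least 11.7-fold lower, against a floor of 3 reads over the group. Timm17a had the lowest adjusted p, 0.058 by edgeR's quasi-likelihood test, and Timm44 came next at 0.088. Timm17a was called by DESeq2 (adjusted p = 5.0e-04) and by limma-voom with TMM (adjusted p = 4.3e-04) or quantile normalization (adjusted p = 4.9e-04), and Timm44 by the same 3 fits. In all, DESeq2 called 5 members here, limma-voom with TMM 8 and with quantile normalization 3, where they called 5.07%, 5.65% and 3.45% of all genes. Timm21 and Tomm40l are among those largely covered by genes on the opposite strand. In Casp2-depleted CMs 5 of the 7 had no read at P14, Chchd1 at least 28.4-fold, Tomm34 at least 24.1-fold, Fis1 at least 15.6-fold, Timm21 at least 12.03-fold and Timm22 at least 9.14-fold lower, and DESeq2 and both limma-voom fits called 1 member, Tomm34, where they called 5.82%, 4.08% and 4% of all genes.

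**Figure D3:**
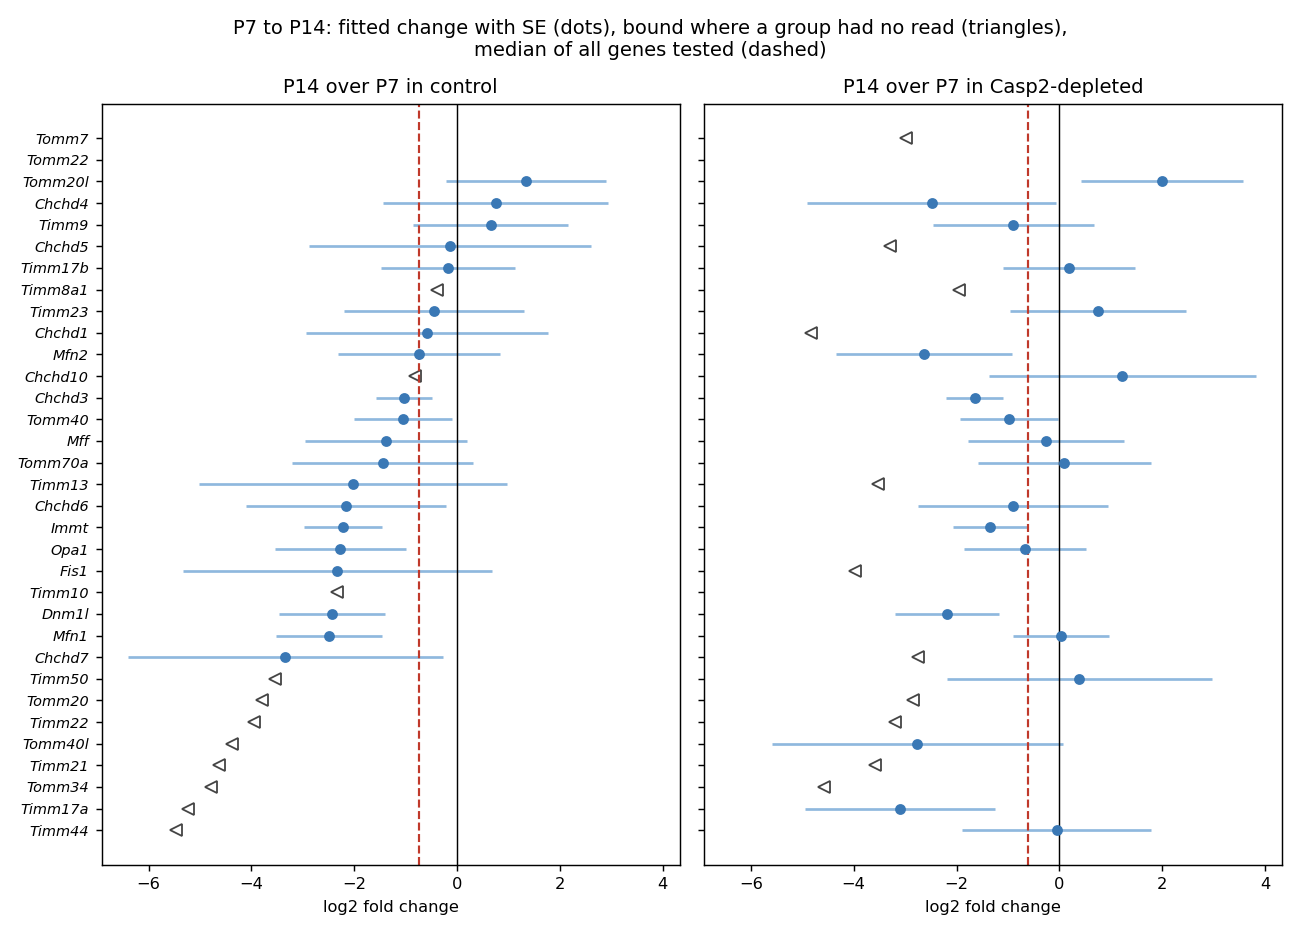
Log2 fold change of P14 over P7 (x axis) for each tested member (y axis) in controls (left) and Casp2-depleted CMs (right). Dots show the fitted change with its SE, open triangles the bound where a group had no read, and the dashed line the median of all genes tested (-0.75 and -0.61). Tomm22 and, in controls, Tomm7 have no value because both groups were at or under the floor. Timm10 in Casp2-depleted CMs has none either, as its P7 level (0.637 CPM) was under the P14 floor (0.662 CPM).

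Ranges of the libraries did not overlap between P7 and P14 for 10 members in controls, all lower at P14, where 13.5% of all genes were lower and 1.92% higher without overlap. They were Timm44, Timm50, Tomm34, Timm22, Dnm1l, Timm21, Mfn1, Immt, Timm17a and Tomm20. In Casp2-depleted CMs this held for 6, Tomm34, Dnm1l, Mfn2, Immt, Chchd3 and Timm17a, where 10.9% of all genes were lower and 2.26% higher without overlap. Dnm1l, Immt, Tomm34 and Timm17a were in both groups of genes. These ranges and shares are on the TMM scale. In unscaled CPM, Mfn1 and Immt overlapped in controls, and Mfn2, Immt and Timm17a in Casp2-depleted CMs.

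Fewer members were detected at P14 than at P7, with ranges that did not overlap. The P7 libraries had reads of 57.6 to 93.9% of the 33 tested members and of 66.9 to 83.3% of all genes tested, and the P14 libraries of 21.2 to 54.5% and 37.0 to 64.6%. In each of the 6 P14 libraries the share of members was below the share of all genes. This was not particular to P14: it held in the 3 kept P1 controls (48.5 against 52.7%, 69.7 against 71.6% and 63.6 against 67.6%). It also held in P1 Casp2-depleted replicate 3, P7 control replicate 2 and P7 Casp2-depleted replicates 2 and 3. Reads on genes were at most 1278961 in the P14 and at least 1452114 in the P7 libraries. The part of depth in detection was not tested. Where a gene had at least 20 reads in another library of its group, a value of 0 was found for 45.0% of the members' values in P14 controls and 31.4% of those of all genes. It was 7.22% against 11.96% in P7 controls and 24.5% in both Casp2-depleted groups of these days, against 14.7% and 27.0%.

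**Figure D4:**
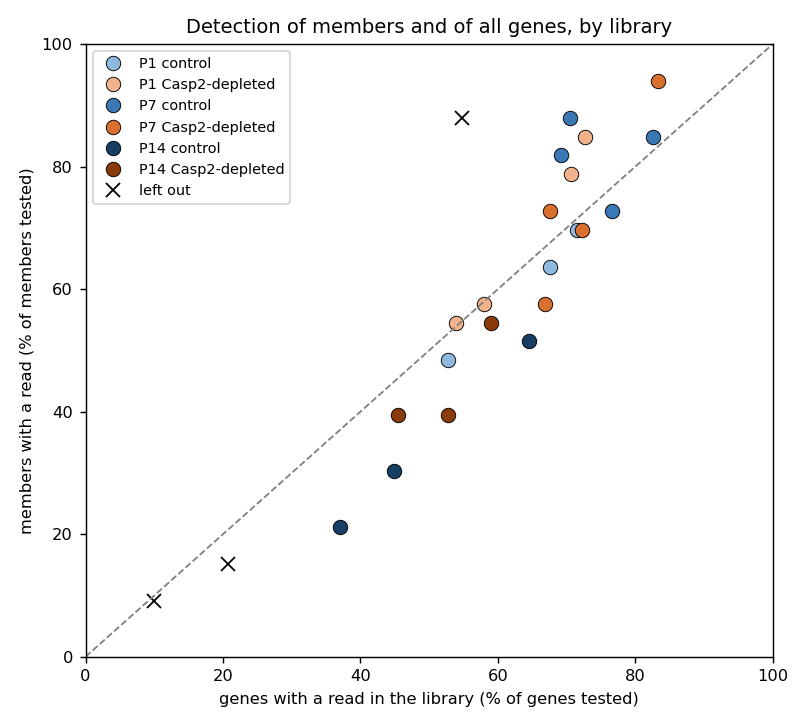
Share of the 33 tested members with a read (y axis, percent) against the share of all 20368 tested genes with a read (x axis, percent) in each library, with crosses for the 3 libraries left out and a dashed line of equal shares. The 6 kept P14 libraries lie under the line, at 21.2 to 54.5% of members, as do the kept P1 controls and some other P1 and P7 libraries.

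The share of reads on no gene moved with these days too. It was 36.7 to 54.7% in P7 controls and 34.3 to 64.3% in P7 Casp2-depleted libraries, and 63.7 to 75.2% and 72.2 to 76.1% at P14. With this share as a term in the fit, the members' median P14 over P7 change was -1.53 in controls and -0.19 in Casp2-depleted CMs, against -0.66 and -0.43 over all genes. Then 19 of 33 members were below 0 in each. Equal depth, with every library thinned to 891817 reads, left the medians at -2.07 and -2.09. The CM markers moved with these days as well, with a summed level of 45354 to 81966 CPM in the 8 P7 libraries and 12127 to 44306 CPM in the 6 P14 libraries, without overlap. Fibroblast markers were at 78.9 to 213 CPM and 174 to 379 CPM. Endothelial markers were at 144 to 468 CPM and 53.2 to 1115 CPM, and macrophage markers at 48.3 to 254 CPM and 87.0 to 344 CPM. Mural markers were at 260 to 491 CPM and 67.2 to 510 CPM. The part of the no-gene share was not tested beyond the fit above, and that of the markers was not tested.

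From P1 to P7 in controls, 25 of 33 members had a fitted change above 0, where 55.0% of all genes did, with a median of 0.58 on the log2 scale against 0.21. Without P1 control replicate 3 the members' median was 1.63, against 0.52 over all genes, and without replicate 4 it was 1.15 against 0.46. At an unadjusted p below 0.05 there were 4 members, all higher at P7. Of all genes 6.67% passed, 4.52% higher and 2.15% lower. The log2 difference was 4.74 for Timm9 (SE 1.91, n = 4 and 3, edgeR adjusted p = 0.63) and 4.12 for Mff (SE 1.81, same adjusted p). Chchd1 and Chchd7 were at least 32.6-fold and 16.9-fold higher than in P1 controls without a read. Ranges did not overlap for Timm9, Timm21, Mff, Mfn1 and Mfn2, all higher at P7, where 6.89% of all genes were, and for none lower, where 2.86% were. In unscaled CPM those of Timm21, Mfn1 and Mfn2 overlapped. DESeq2 called 1 member, Chchd10, which is largely covered by genes on the opposite strand, where 0.432% of all genes were called. That call rests on 8 Chchd10 reads in 2 P7 controls and none in P1 controls, so its fitted log2 change of 17.9 is no measured size. The limma-voom fits called none, where they called 0.241% (TMM) and 0.457% (quantile normalization) of all genes.

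From P1 to P7 in Casp2-depleted CMs, 20 of 33 members were above 0 and 13 below, where 52.5% and 45.9% of all genes were, with medians of 0.20 and 0.07. Fis1 and Timm8a1 passed an unadjusted p of 0.05, at least 23.8-fold and 5.85-fold higher than a group without a read. Of all genes, 7.4% passed, 5.14% higher and 2.26% lower. The replicate number as a block turned this median to -0.07, with 16 members above 0, and so did leaving out P7 Casp2-depleted replicate 1, to -0.15. No range of any member was free of overlap between these days, where 1.48% of all genes were higher and 0.476% lower without overlap. No other tool called a member, where DESeq2 called 46, limma-voom with TMM 8 and with quantile normalization 12 of 20368 genes.

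Across the whole interval, P14 over P1, 23 of 33 members in controls and 24 of 33 in Casp2-depleted CMs were below 0, where 55.7% and 57.3% of all genes were. Above 0 were 7 and 6 members, where 35.3% and 37.6% of all genes were. The medians were -0.85 against -0.28 and -1.14 against -0.41. With 1 library left out the members' medians ran from -2.12 (without P14 control replicate 2) to -0.37 (without P1 control replicate 4) and from -2.20 (without P14 Casp2-depleted replicate 2) to -0.62 (without P1 Casp2-depleted replicate 1). In controls 7 members passed an unadjusted p of 0.05, where 11.5% of all genes did, 2 of them higher and 5 lower, where 2.36% and 9.09% of all genes were. Timm9 was higher and Timm17a lower without overlap, where 1.52% and 6.41% of all genes were. Timm17a was at least 49.3-fold lower (edgeR adjusted p = 0.15) and was called by DESeq2 and both limma-voom fits, which called 2.55%, 1.01% and 0.619% of all genes, while Timm9 was higher by 5.40 on the log2 scale (SE 2.00, edgeR adjusted p = 0.36) and was called by DESeq2, which also called Tomm34. Among Casp2-depleted CMs 7 members passed, all lower, where 13.3% of all genes were. Timm17b was higher and Tomm34, Dnm1l and Chchd3 were lower without overlap, where 2.01% and 4.78% of all genes were, and Tomm34, at least 24.3-fold lower (edgeR adjusted p = 0.22), was called by DESeq2 and both limma-voom fits, which called 5.82%, 2.11% and 2.99% of all genes. In unscaled CPM the ranges of Dnm1l and Chchd3 overlapped.

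Between genotypes no member was called by edgeR at P1, P7 or P14. At P1, 20 of 33 were higher in Casp2-depleted CMs and 11 lower, where 52.4% and 43.5% of all genes were, with medians of 0.23 and 0.08. With 1 library left out the members' median ran from 0 (without P1 Casp2-depleted replicate 4) to 0.64 (without P1 control replicate 4). With the no-gene share of reads in the fit the direction turned, with 15 higher, 18 lower and medians of -0.15 and -0.13. DESeq2 called Chchd10, where 0.516% of all genes were called. At an unadjusted p below 0.05 there were 4 members, where 7.34% of all genes passed. Timm9 was higher by 5.04 (SE 1.94, n = 4 and 3, edgeR adjusted p = 0.64), Mff by 3.71 (SE 1.78, same adjusted p), Chchd7 was at least 14.1-fold higher and Tomm22 at least 4.76-fold lower. With all 24 libraries, P1 control replicate 1 included, the median turned to -0.15, and the log2 differences of Timm9 and Mff were 2.37 and 0.97.

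At P7, 11 of 33 members were higher in Casp2-depleted CMs and 22 lower, where 48.1% and 51.2% of all genes were, with medians of -0.32 and -0.03. With 1 library left out the members' median ran from -0.63 (without P7 Casp2-depleted replicate 1) to -0.02 (without P7 control replicate 1). Only Tomm7 passed an unadjusted p of 0.05, where 4.22% of all genes did, at least 10.8-fold higher than controls without a read, on 33 reads. No range was free of overlap, where 0.697% of all genes were higher and 0.943% lower without overlap. No tool called a member. Of 20368 genes DESeq2 called 25, and limma-voom 0 with TMM and 1 with quantile normalization. For the best-measured members the 95% intervals of the log2 difference were -1.18 to 0.90 for Chchd3, -1.70 to 1.08 for Immt, -2.26 to 1.46 for Dnm1l, -2.26 to 1.44 for Mfn1 and -3.40 to 2.72 for Mfn2.

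At P14, 12 members were higher and 13 lower in Casp2-depleted CMs, and 8 were without a read in both genotypes. Other fits gave another balance: 23 were higher and 10 lower with the replicate number as a block (median 0.65, against 0.13 over all genes), and 20 and 13 with the no-gene share of reads in the fit (median 0.44 against 0.20). At an unadjusted p below 0.05 there were 5 members, where 12.8% of all genes passed. Mfn1 was higher by 2.11 (SE 1.05, n = 3 each, edgeR adjusted p = 0.39), with values of 5.64 to 188 CPM against 0 to 42.8 in controls. Timm44 was at least 38.0-fold, Chchd10 at least 24.5-fold and Timm17a at least 10.2-fold higher than controls without a read, and Chchd1 was at least 20.1-fold lower. These 4 rest on 1 or 2 libraries each. DESeq2 called Timm44, Chchd10 and Timm17a, where it called 3.2% of all genes. The limma-voom fits called no member, where they called 116 (TMM) and 149 (quantile normalization) of 20368 genes. Without P14 control replicate 4, Tomm40 was called (edgeR adjusted p = 0.0053), but the controls then have no Tomm40 read.

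Averaged over days, Chchd10, Timm44 and Timm17a passed an unadjusted p of 0.05, all higher in Casp2-depleted CMs, where 4.39% of all genes were, with a smallest adjusted p of 0.29 by edgeR. DESeq2 called Chchd10, and 1.08% of all genes. Its fitted value of 14.7 leans on P1 and P14 controls without a Chchd10 read. For the interaction of genotype with P7 over P1, 3 members passed (Mff, Chchd7 and Timm9), all below 0, where 3.85% of all genes were, and for that with P14 over P7, 3 passed (Timm44, Chchd1 and Timm17a), where 9.76% of all genes did. On the log2 scale the interaction with P7 over P1 was -4.90 for Mff (edgeR adjusted p = 0.67) and -4.76 for Timm9 (edgeR adjusted p = 0.70). With all 21 libraries edgeR called no interaction for any member. Without P14 control replicate 4, which leaves no Tomm40 read in P14 controls, it called that of Tomm40 for P14 over P7 (adjusted p = 0.022). DESeq2 called that of Chchd10, and 1.21% of all genes. That value, 19.2 on the log2 scale, leans on P14 controls without a Chchd10 read.

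Among other genes of the same machinery edgeR called 3, Atad3a, Hspa9 and Trak1, all lower at P14, while DESeq2 and limma-voom called more. Of the import partners, 26 of 28 were tested, of the cristae and MICOS partners 10 of 10 and of the fission and fusion partners 22 of 23. In controls 19 of 26, 10 of 10 and 16 of 22 were below 0, with medians of -0.82, -1.80 and -1.59, where 62.2% of all genes were below 0 and the median was -0.75. Of these, edgeR called 2, where 1.88% of all genes were called, DESeq2 called 3 and limma-voom 6 with TMM and 5 with quantile normalization. Hspa9 was called by all 4 fits and Atad3a by edgeR and DESeq2. Atad3a, an inner membrane ATPase of nucleoids and cristae, was at 129, 277, 158 and 127 CPM at P7 and 14.1, 0 and 15.2 at P14 (log2 change -4.13, SE 0.99, edgeR adjusted p = 0.0041). Hspa9, the Hsp70 of the import motor that works with Timm44, was at 71.6, 171, 113 and 72.7 at P7 and 4.95, 0.75 and 0 at P14 (log2 change -5.75, SE 1.53, edgeR adjusted p = 0.015). For both, every P14 library lay below every P7 library.

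In Casp2-depleted CMs 17 of 26 import partners, 9 of 10 cristae partners and 18 of 22 fission and fusion partners were below 0 from P7 to P14, with medians of -0.96, -2.31 and -1.36, where 60.1% of all genes were below 0 and the median was -0.61. The only edgeR call was Trak1, an adaptor of mitochondria to motor proteins, where 2.83% of all genes were called. DESeq2 called 8 partners, Trak1 among them, and limma-voom 6 with TMM and 4 with quantile normalization, without Trak1. It was at 268, 69.5, 47.4 and 314 CPM at P1, 295, 101, 83.9 and 64.7 at P7 and 32.4, 3.78 and 26.2 at P14. The change was -2.71 for P14 over P7 (SE 0.83, edgeR adjusted p = 0.042) and -3.07 for P14 over P1 (SE 0.85, edgeR adjusted p = 0.021). With the replicate number as a block, Trak1 was called for P14 over P7 in controls and not in Casp2-depleted CMs, where Miga2, which promotes mitochondrial fusion, was called, and for P14 over P1 no partner was. With that no-gene share in the fit, or with all 24 libraries, no partner was called, and without P7 control replicate 2 none was called either. Hspa9, at 81.3, 77.7, 89.4 and 79.4 CPM in P7 and 4.94, 16.4 and 23.6 in P14 Casp2-depleted libraries, and Atad3a, at 65.4, 283, 209.8 and 135 and 33.1, 30.3 and 39.98, also had all P14 libraries below all P7 libraries there on the TMM scale, without a call.

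By edgeR no partner was called between P1 and P7 or between genotypes. Both limma-voom fits called Mtfr1l, a regulator of mitochondrial fission, for P7 over P1 in controls, between genotypes at P1 and for the interaction of genotype with P7 over P1. It had no read in P1 controls, 84 in P7 controls, and 9.12 to 43.2 CPM in the P1 Casp2-depleted libraries. Of all genes, limma-voom with TMM called 0.241%, 0.241% and 0.0196% in these comparisons, and with quantile normalization 0.457%, 0.309% and 0.00982%. From P1 to P7 in controls 21 of 26 import, 9 of 10 cristae and 16 of 22 fission and fusion partners were above 0, with medians of 0.83, 1.35 and 0.81, where 55% of all genes were and the median was 0.21. Miga2 had a log2 change of 1.70 (SE 0.65, edgeR adjusted p = 0.63). The same step in Casp2-depleted CMs had 10 of 26, 3 of 10 and 10 of 22 above 0, with medians of -0.33, -0.13 and -0.17, where 52.5% of all genes were and the median was 0.07. At P14, Mtch2, an outer membrane insertase, Dnajc15, a partner of the import motor, and Letm1, an inner membrane ion exchanger, had no read in Casp2-depleted CMs and 95, 88 and 77 reads in controls, with edgeR adjusted p of 0.35, 0.36 and 0.36. DESeq2 called Dnajc15 and Letm1 here.

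P1 control replicate 1 stood apart for the short members and for the sum of the longest ones. It had 7526 reads on members, 0.227% of its reads on genes, and 9.21% of its uniquely placed reads fell on no gene, against 60.7 to 73.9% in the other P1 controls. Mitochondrially encoded genes took 1.88% of its reads, against at most 0.588% in the 21 libraries. Of the 40 members, 8 were above all 21 kept libraries (20%), where 7.96% of protein-coding genes were. They were Tomm5, Tomm7, Tomm22, Tomm34, Timm29, Timm8b, Timm13 and Chchd3. Tomm5 had 28 reads there and none in any kept library.

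By gene length, summed over the 14 members under 10000 bp, the level was 164 CPM in P1 control replicate 1 and 0 to 23.8 CPM in the other P1 controls. Over the 16 members of 10000 bp up to 25000 bp it was 377 CPM, against a mean of 377 CPM in the others, and over the 10 longer ones 1733 CPM against 722. For protein-coding genes under 10000 bp the ratio of this library to the mean of the others was 2.00, and for the members of this length it was 13.1. That mean was only 12.5 CPM, and the highest of the 21 libraries was at 84.0 CPM. For genes of 25000 bp or more the ratio was 1.05 over protein-coding genes and 2.40 over the members. Timm13, at 40.8 CPM, Timm29, at 23.6, and Timm8b, at 21.1, had no read in the other P1 controls, so that they were at least 55.6-fold, 32.1-fold and 28.8-fold higher. The floor is 3 reads over the 3 other P1 controls and covers counting error only.

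**Figure D5:**
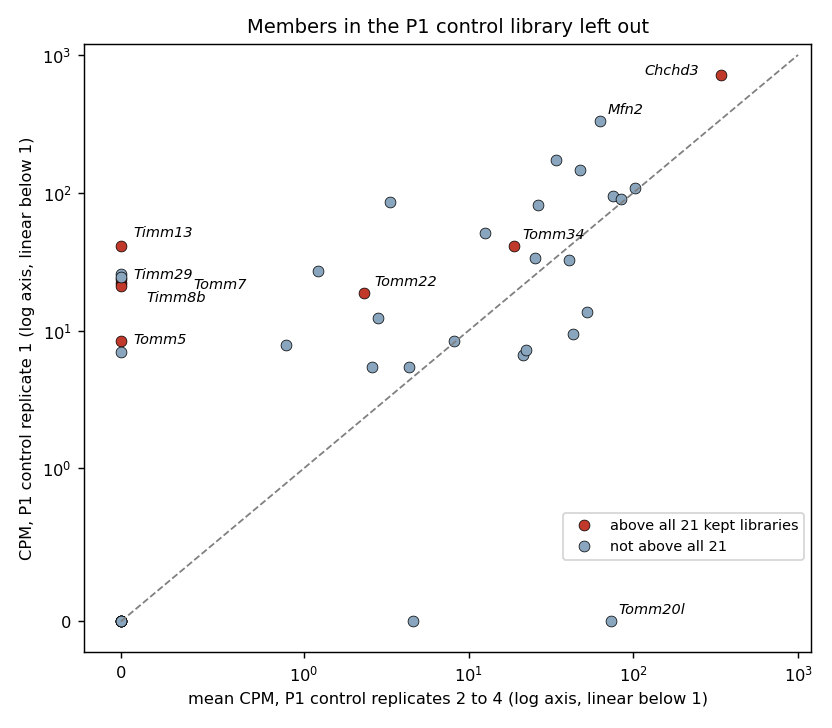
CPM in P1 control replicate 1 (y axis) against the mean CPM of P1 control replicates 2 to 4 (x axis) for the 40 members, on log axes that are linear below 1, with a dashed line of equal values. Red points mark the 8 members above all 21 kept libraries, of which Timm13, Timm29, Timm8b, Tomm7 and Tomm5 were at 0 in the other P1 controls.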

How the data were processed

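Nuclear RNA of PCM1-sorted CM nuclei was sequenced with a 3′ end library kit (QuantSeq FWD). Per the study's methods, reads were trimmed with cutadapt 4.0, aligned with STAR 2.6.1e to GRCm39 (Ensembl 108) and counted with HTSeq 2.0.3 over the full gene, introns included, after FastQC 0.11.8. The strand setting and any use of molecular identifiers are not given in the sources used here. The authors deposited these values as raw read counts per gene and library. Rows that name no gene held 34.3 to 76.1% of the uniquely placed reads of the 21 libraries and were kept out of library sizes and tests.

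Counts were tested with edgeR 4.0.16 (R 4.3.3) by the quasi-likelihood F-test, with robust estimation, TMM factors and 1 mean for each of the 6 groups. A gene was tested if its reads summed to 10 or more and 3 or more of the 21 libraries held one, and p-values were adjusted by Benjamini-Hochberg over all 20368. All tests were two-sided. The SE of a log2 fold change is its size over the square root of F. Depth was 891817 to 2924097 reads on genes, and floors cover counting error only. The 95% intervals come from the SE of the fit on 15 residual degrees of freedom. The bound for a group without a read is 3 reads over the group. Replicate libraries are pools of hearts, so p-values and 95% intervals measure the spread between pools.

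Alternatives were DESeq2 1.42.0, limma 3.58.1 (voom, with TMM or quantile normalization), DESeq2 size factors, other filters, all 24 libraries, equal depth, the no-gene share in the fit, only the groups compared, leaving out each library, and the replicate number as a block. The labels give the groups the same replicate numbers and do not say what a number shares, while the names of the deposited tables call the number a batch. Deviations from the group means of same-numbered libraries correlated between -0.059 and 0.19 over 9 pairs, and the numbers were not taken as pairs in the main fit. The share of reads on members was highest in replicate 1 of P1 (0.227%), P7 (0.180%) and P14 controls (0.121%). It was so too in P1 (0.186%) and P7 Casp2-depleted CMs (0.174%), while at P14 replicate 1 was lowest there (0.0797%). What the replicate 1 libraries share was not tested. The edgeR fit was tested on simulated data for P7 over P1 in controls, with the same spread for every gene. It recovered the changed genes where libraries differed little, and none of them at the common spread of these libraries.

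Values in every library are given for Chchd3, Immt, Mfn1, Mfn2, Opa1, Dnm1l, Mff, Fis1, Tomm40, Timm17b and Timm9, and a fold change with its adjusted p where the unadjusted p was below 0.05, with exceptions where 1 library decides a call. Partner genes are named where called or, up to 5 for a comparison, where the unadjusted p was below 0.05. The members, partner lists and markers were chosen with earlier results of these data known. Promoter windows and their sequences come from RefSeq (GRCm38.p6) and were placed on GRCm39 by exact match.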

Additional observations from a re-analysis of the deposited data

Results flagged for a closer look

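In 75 tests of groups of 4 libraries for a single value far from the others, 10 were past Dixon's critical value of 0.829. In 3 of these, Fis1, Tomm40 and Timm17b in P14 controls, the other libraries were all at 0, which fixes the ratio at its highest. Chance passes about 1 in 20 groups of a continuous measure, and with so many zeros this rate does not hold here. Values here are CPM of reads on genes without TMM scaling. In P1 control replicate 1, which entered no test, Mff was at 85.5 CPM and Timm9 at 27.2 CPM, far above the other P1 controls. P7 Casp2-depleted replicate 1, the library with the most reads of the 21, had 0.174% of its reads on the members, Mff at 79.3 CPM and Fis1 at 19.8 CPM. Replicate 1 also had the highest Mff value in P1 Casp2-depleted CMs (92.2 CPM), P7 controls (123 CPM) and P14 controls (56.3 CPM). In P14 Casp2-depleted CMs replicate 1 had no Mff read. Among P14 controls, replicate 1 had Mfn2 at 416.7 CPM and Timm17b at 93.0 CPM, replicate 2 had Fis1 at 1.95 CPM and replicate 4 had Tomm40 at 238.8 CPM. In P14 Casp2-depleted replicate 2, Chchd3 was far below the other 3 libraries of its group, the one left out included, at 107.9 CPM.

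In P1 control replicate 1, a library outside the tests, 8 members were above all 21 kept libraries. They were Tomm5 at 8.46 CPM, Tomm7 at 22.1 CPM, Tomm22 at 18.7 CPM, Tomm34 at 41.1 CPM, Timm29 at 23.6 CPM, Timm8b at 21.1 CPM, Timm13 at 40.8 CPM and Chchd3 at 713 CPM. Protein-coding genes were above all 21 in 7.96% of cases. The share of reads on no gene, 9.21% in this library, moved with these values, and its part in them was not tested.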

How the results depend on the processing

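No member was called in any of the 12 comparisons with edgeR under TMM or DESeq2 size factors, other filters, all 24 libraries, equal depth, the no-gene share in the fit or the adjusted p alone, nor with only the groups compared, which was run for 11 comparisons, without the average over days. The replicate block gave 0 member calls as well, and 4 partner calls against 4 without it, of which Atad3a and Hspa9 for P14 over P7 in controls were in both. Each same-numbered pair of libraries correlated best with its own number in 5 of 9 cases. DESeq2 called 5 members for P14 over P7 in controls, 3 for P14 over P1 in controls, 3 between genotypes at P14, and 1 for P7 over P1 in controls, for P14 over P7 and P14 over P1 in Casp2-depleted CMs, between genotypes at P1 and averaged over days, and for the interaction of genotype with P14 over P7. Limma-voom called 8 members with TMM and 3 with quantile normalization for P14 over P7 in controls, and 1 with either for P14 over P1 in controls and for both P14 comparisons in Casp2-depleted CMs. The cause was not tested. Leaving out 1 library at a time gave 0 to 2 member calls for P14 over P7 in controls, and 0 to 1 for P14 over P1 in controls, between genotypes at P14 and for the interaction with P14 over P7. Partner calls, 4 in all, were 0 with all 24 libraries, 0 with the no-gene share in the fit, 21 with DESeq2, 18 and 15 with limma-voom under TMM and quantile normalization, and 0 to 6 with 1 library left out. They were 0 without P7 control replicate 2, 1 without P14 control replicate 2, and 2 without P1 Casp2-depleted replicate 1 or 4, P7 control replicate 1 or P14 Casp2-depleted replicate 3 or 4. The share of reads on members was 0.14% in P1 controls with all 24 libraries and 0.168% in P7 controls without the 10 most-read genes. The log2 fold change of Chchd1, interaction of genotype with P14 over P7, ran from -7.99 to 0.036 with 1 library left out, and its sign turned without P14 control replicate 2. Depth limits the 14 members under 10000 bp, found in a mean of 5.07 libraries.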
